A study of Mus musculus with 6 samples.

Results

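Small nucleolar RNA (snoRNA) genes were examined in donor cells sorted as hematopoietic stem and progenitor cells (HSPCs). The cells came from donors with and without Hemgn and had just homed to the bone marrow of irradiated recipients. The genes were those of the deposited table that the GENCODE M21 annotation of GRCm38 types as snoRNA and that carry a Snord or Snora symbol. There were 38 of them among the 24965 genes of the table, 28 Snord genes (box C/D) and 10 Snora genes (box H/ACA). The annotation holds 140 genes of this kind, 98 box C/D and 42 box H/ACA, and the others were not analysed here.

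SnoRNAs are short nuclear RNAs that guide chemical modification of ribosomal RNA by base pairing with it. Box C/D snoRNAs direct 2'-O-methylation by fibrillarin (Fbl), and box H/ACA snoRNAs direct pseudouridylation by dyskerin (Dkc1). A few, such as U8 (Snord118), act in the cleavage of the ribosomal RNA precursor. Most mammalian snoRNAs are cut out of the introns of host genes, many of which encode ribosomal proteins or other parts of the translation machinery, and mature snoRNAs carry no poly(A) tail.

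The donors were WT mice (3 libraries) and Hemgn-/- mice (3 libraries, labelled KO), and Hemgn-/- mice carry a whole-body disruption of Hemgn made with zinc finger nucleases on a C57BL/6 (CD45.2) background. Per the study's methods, animals were males and females of 8 to 10 weeks, and mutants were compared with matched WT littermates. Bone marrow cells were injected into CD45.1+ recipients that had received 9 Gy in a split dose, and CD45.2+ donor cells were collected 6 h after transplantation. All 6 libraries therefore come from transplanted cells, and no untransplanted cells were compared. The labels describe the sorted cells as lineage-negative and Sca-1+, whereas the methods add c-Kit, and the labels name a TruSeq kit where the methods name Smart-Seq2, which primes cDNA from poly(A) tails. Replicates are called biological in the methods, and how many animals made up each is not given in the sources used here.

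The libraries held 23668015 to 28897360 fragments, as recovered from the steps between FPKM values (fragments per kilobase of gene and per 1000000 fragments). The paper describes the mutant allele as a small coding deletion with a premature stop codon. The RNA level of Hemgn is therefore not a check of the genotype. Hemgn lay at 5.64, 2.96 and 4.68 FPKM in WT replicates 1, 2 and 3 and at 0.755, 0.913 and 1.60 FPKM in Hemgn-/- replicates. Its difference of -1.37 on the log2 scale (standard error 0.23) had an adjusted p of 0.0114 in limma with Benjamini-Hochberg adjustment, and of 0.0503 without WT replicate 3 (0.0074 to 0.0613 over the alternatives). Sort markers were detected at modest levels, with Kit at 5.50 to 7.24 FPKM and Ly6a (Sca-1) at 8.27 to 17.3 FPKM over all libraries. The summed level of 12 HSPC markers was 37.4 to 43.8 FPKM in WT and 45.9 to 54.6 FPKM in Hemgn-/- libraries, with 1 marker higher and 0 lower at an adjusted p under 0.05. Markers of other cells differed too. The sum of 11 erythroid markers was 499 to 585 FPKM in WT and 65.4 to 89.3 FPKM in Hemgn-/- libraries (0 higher, 5 lower), and that of 10 neutrophil markers was 74905 to 80731 and 48926 to 54223 FPKM (0 higher, 5 lower). The sum of 5 eosinophil and basophil markers was 363 to 452 and 182 to 192 FPKM (0 higher, 3 lower). The 3 lower were Epx, Prg2 and Prg3. The basophil markers Mcpt8 and Ms4a2 were not called, with log2 fold changes of -0.10 and 0.45 (limma adjusted p = 0.639 and 0.170). The sum of 8 B cell markers was 1165 to 1226 and 1384 to 1558 FPKM (3 higher, 0 lower). T and NK cell markers (106 to 116 and 117 to 149.7 FPKM, 2 higher and 0 lower) and plasmacytoid dendritic markers (109 to 122 and 150.3 to 182 FPKM, 2 higher and 0 lower) were summed likewise. Macrophage markers stood at 156 to 163 and 143 to 151 FPKM (2 higher, 1 lower), and endothelial markers at 12.5 to 14.9 and 15.97 to 19.4 FPKM (0 called). No marker was at 0 in all libraries, and the part of these cells in the snoRNA and Hemgn values was not tested. In bulk RNA, fewer cells of a type and less RNA per cell cannot be told apart.

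The snoRNA genes gave few fragments. They are 65 to 238 bases long, and 37 of the 38 are shorter than a 150-base read, so 1 fragment was worth 0.145 to 0.65 FPKM on them. Only 10 genes had a mean of at least 10 fragments per library, 5 had at least 20, and 16 had under 2. In all, 17 genes were above 0 in every library and 5 in 1 library only. Mean levels over the 6 libraries ran from 0.0555 FPKM for Snord13 to 42.9 FPKM for Snord73a. Counts of amplified cDNA fragments are not independent molecules, so intervals and limits from counts cover counting error only.

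Most of these genes lie inside other genes. By position, 29 lie in an intron of a host on the same strand, in introns of 188 to 9111 bases, and 22 of these sit within 150 bases of a host exon. A further 4 overlap an annotated host exon (Snord69 and Snord19 in Gnl3, Snora2b in Kansl2 and Snord111 in Sf3b3), and 5 have no host (Snora57, Snord13, Snora17, Snord104 and Snord118). The 29 hosts include 25 protein-coding genes, of which 7 encode ribosomal proteins. A fragment assigned to an intronic snoRNA gene may come from the mature snoRNA, from unspliced host RNA or from a retained intron, and the table does not tell these apart. In all, 9 genes have a copy of at least 90% identity in another annotated gene, so their values are uncertain.

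The sequence of Snord73a, the member with the highest level and the one that differed between genotypes, shows the boxes by which the family is recognized. The sequences printed here come from GENCODE M21 transcripts (GRCm38), are written as DNA, and have box C (TGATGA within the first 25 bases) and box D (CTGA within the last 25 bases) in capitals. Exact box C letters were found in 71.4% of the 98 annotated box C/D genes and 0% of the 42 box H/ACA genes, and box D letters in 99% and 14.3%. Snord73a (ENSMUSG00000064984) lies at chr3:86138791-86138858 on the minus strand, in a 447-base intron of Rps3a1, 181 bases from the nearest exon of that host.
Snord73a: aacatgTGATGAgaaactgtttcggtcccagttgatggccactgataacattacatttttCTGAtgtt

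Snord73a was lower in the Hemgn-/- libraries. It lay at 52.2, 59.8 and 84.9 FPKM in WT replicates 1, 2 and 3 and at 20.4, 19.1 and 21.4 FPKM in Hemgn-/- replicates 1, 2 and 3. The fragments behind them numbered 84, 104 and 160 in WT, against 38, 34 and 42 in Hemgn-/- libraries. All of these numbers are even, and how these reads were counted was not tested. Every WT library was above every Hemgn-/- library, and the Hemgn-/- libraries lay close together. The genotypes differed by -1.62 on the log2 scale (standard error, SE, 0.16, adjusted p = 0.0010 in limma with Benjamini-Hochberg adjustment over 13739 genes). Leaving out any 1 library gave log2 fold changes from -1.76 to -1.42.

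Rps3a1, the host of Snord73a, encodes a protein of the small ribosomal subunit and was lower as well. It lay at 380.9, 492.0 and 349.6 FPKM in WT and 183.1, 271.7 and 215.4 FPKM in Hemgn-/- replicates, again with no overlap. Its log2 fold change was -0.87 (SE 0.16, adjusted p = 0.0158, limma with Benjamini-Hochberg adjustment), and the adjusted p was 0.0685 without Hemgn-/- replicate 3 (0.0035 to 0.0802 over the alternatives). The ratio of Snord73a to Rps3a1 FPKM was 0.137, 0.121 and 0.243 in WT and 0.111, 0.0703 and 0.0992 in Hemgn-/- libraries. The ratio was lower in every Hemgn-/- library, by 0.79 on the log2 scale. An exact permutation test gave a two-sided p of 0.1, the smallest that 3 libraries against 3 allow. Among the other snoRNA genes with a mean of at least 10 fragments and a tested host, Snord23 reached the same p. In that test p was 0.2 for Snord72, 0.3 for Snord53, 0.5 for Snord8 and Snord91a, 0.6 for Snord69 and 0.7 for Snord98. The level of Rps3a1 in this ratio is itself uncertain, as described next.

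The host has an annotated processed pseudogene, Rps3a2, which lacks introns and moved the other way. Rps3a2 lay at 1.77, 1.84 and 1.19 FPM (fragments per 1000000 fragments of the library) in WT and at 124, 180 and 156 in Hemgn-/- libraries. Fragments of such copies can be assigned to either gene, so both values are uncertain. The mean of Rps3a1 was 398 FPM in WT and 218 in Hemgn-/- libraries, and Rps3a1 and Rps3a2 together gave 400 and 371. Snord73a went from 4.46 to 1.38 FPM, a 3.24-fold difference, against 1.82-fold for Rps3a1 and 1.08-fold for the 2 genes together. No other annotated transcript matched Snord73a at 90% identity or more.

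**Figure D1:**
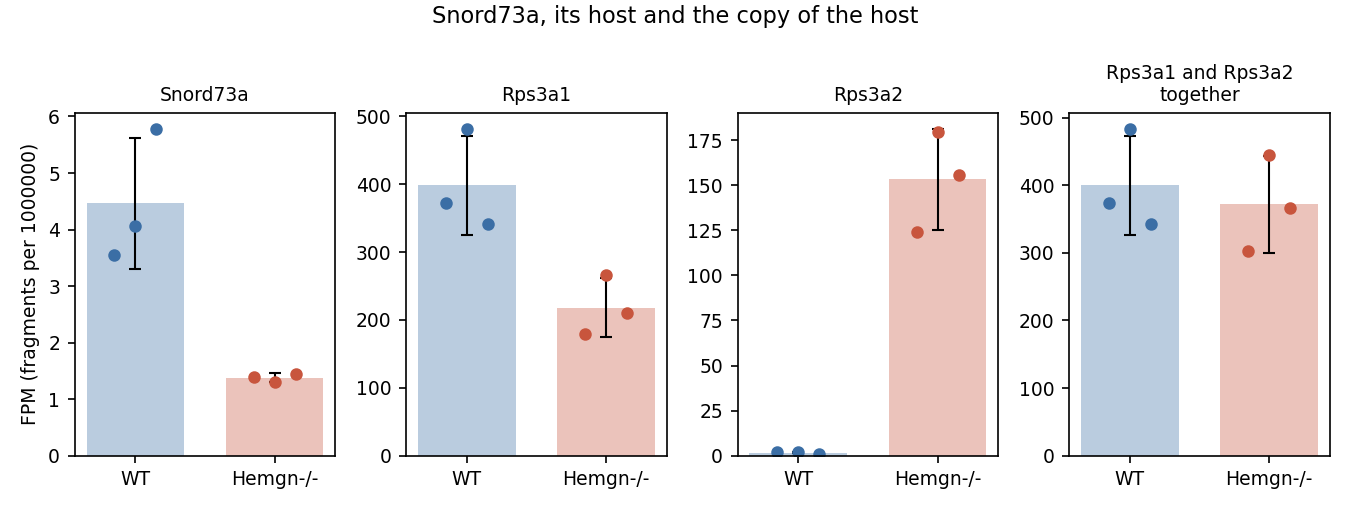
Fragments per 1000000 (FPM) of Snord73a, its host Rps3a1, the processed pseudogene Rps3a2 and the sum of the last 2 genes, with 1 panel each and axes of different range. Points are libraries, bars the mean of 3 libraries and whiskers the SD. Snord73a was lower in all 3 Hemgn-/- libraries, while the sum of Rps3a1 and Rps3a2 overlapped between genotypes.

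No other snoRNA gene passed the adjusted test. Of the 38 genes, 29 exceeded 1 FPKM in some library and were tested, and 7 of the 29 passed only through 1 group (5 through Hemgn-/-, 2 through WT), so counts over the tested genes describe those alone. By limma with Benjamini-Hochberg adjustment, 0 were higher and 1 was lower (Snord73a), where 4.37% and 2.09% of all genes tested were higher and lower (6.46% in either direction). That balance over all genes depends on scaling, with 600 higher and 287 lower as reported, 342 and 387 after median-ratio scaling, 368 and 346 after quantile normalization and 1049 and 238 at the same FPKM total. At an unadjusted p under 0.05 and at least 1.5-fold, 4 were higher (13.8% of the tested, against 4.1% of all genes) and 1 was lower (against 2.74% of all genes, and 6.83% in either direction). The groups did not overlap for 3 higher genes (10.3%, against 19.2% of all genes) and for 1 lower gene (8.18% of all genes). The lowest adjusted p after that of Snord73a was 0.0641.

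The direction was mixed within the family. Over the 29 genes the median log2 fold change was 0.095, with 16 higher and 13 lower, and that of all genes tested was 0.087, with 63.0% higher. One tested gene, Snord11, was at 0 in all WT libraries, and without it the median was 0.074. Box C/D genes had a median of -0.05 (21 tested, 10 higher and 11 lower) and box H/ACA genes one of 0.21 (8 tested, 6 higher and 2 lower). Of the 8 box H/ACA genes 0 reached an unadjusted p under 0.05 in limma, where 21.4% of all genes did. Only Snora17 among these 8 had a mean of at least 10 fragments, so these values are not read as a difference between the classes. The median was 0.05 for the 19 tested genes with a mean under 10 fragments and 0.25 for the 9 with 10 to 50 fragments.

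**Figure D2:**
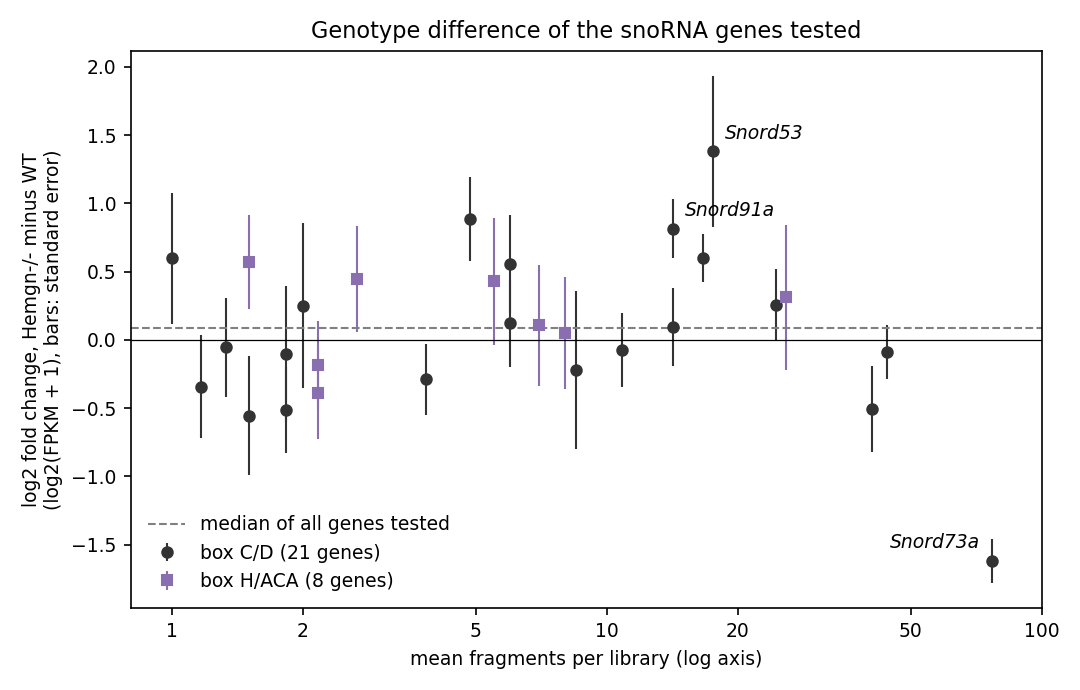
Log2 fold change of each of the 29 snoRNA genes tested (Hemgn-/- minus WT, on log2(FPKM + 1), bars are standard errors) against its mean fragments per library on a log axis, with the median of all genes dashed. Snord73a, at -1.62 and 77.0 fragments, lies apart from the others, which run from -0.55 to 1.38.

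The 4 higher genes past the unadjusted threshold were Snord91a, Snord23, Snord53 and Snord118, and none of them passed the adjusted test. The sequences of the first 3 are shown. An exact box C or box D was not found in every one. Snord91a (ENSMUSG00000077493) lies at chr11:74905424-74905516 on the plus strand in an intron of Tsr1, which encodes a factor of small-subunit maturation. Snord23 (ENSMUSG00000080478) lies at chr7:15938762-15938870 on the minus strand in an intron of Nop53, a nucleolar factor of large-subunit maturation. Snord53 (ENSMUSG00000092887) lies at chr17:71640879-71640956 on the plus strand in an intron of Wdr43, a factor of small-subunit processing.
Snord91a: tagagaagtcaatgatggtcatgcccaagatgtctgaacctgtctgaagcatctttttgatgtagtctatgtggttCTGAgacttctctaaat
Snord23: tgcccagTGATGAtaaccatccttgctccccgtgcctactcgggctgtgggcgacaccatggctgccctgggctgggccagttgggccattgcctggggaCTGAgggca
Snord53: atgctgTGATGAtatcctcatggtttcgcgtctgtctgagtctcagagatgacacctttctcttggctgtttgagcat

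Snord91a lay at 2.73, 5.46 and 3.49 FPKM in WT and 7.44, 9.04 and 5.95 FPKM in Hemgn-/- replicates, from 6, 13 and 9 and from 19, 22 and 16 fragments. The groups did not overlap, but WT replicate 2 came close to the lowest Hemgn-/- library. In limma the log2 fold change was 0.82 (standard error 0.22, adjusted p = 0.0641 by Benjamini-Hochberg). By the same test it was 1.03 without WT replicate 2 (adjusted p = 0.0193) and 0.64 without WT replicate 1 (adjusted p = 0.158), and over all alternatives the adjusted p ran from 0.0193 to 0.416. Its host Tsr1 rose from 6.90 ± 1.00 to 10.3 ± 0.85 FPKM (SD, n = 3 libraries each), by 0.52 on the log2 scale with a limma adjusted p of 0.0440. The ratio of Snord91a to Tsr1 overlapped between genotypes (0.340 to 0.894 in WT, 0.616 to 0.803 in Hemgn-/- libraries). That call on Tsr1 was lost without WT replicate 2 (adjusted p = 0.104), as it was on leaving out 4 of the other 5 libraries in turn (0.0207 to 0.133 over the alternatives).

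Snord23 gave 12, 14 and 10 fragments in WT and 22, 16 and 26 in Hemgn-/- replicates, at 4.65, 5.02 and 3.31 and at 7.36, 5.61 and 8.25 FPKM. These fragment numbers are all even, as for Snord73a. All Hemgn-/- libraries were above all WT libraries. This was a log2 fold change of 0.60 (SE 0.17, adjusted p = 0.0854, limma with Benjamini-Hochberg adjustment). Its host Nop53 was at 92.7 ± 5.16 and 98.2 ± 6.62 FPKM (SD, n = 3 each), with a log2 fold change of 0.08 and an adjusted p of 0.583 in limma. The ratio of Snord23 to Nop53 was 0.0473, 0.0569 and 0.0361 in WT and 0.0695, 0.0593 and 0.0877 in Hemgn-/- libraries, a difference of 0.63 on the log2 scale (exact permutation test, two-sided p = 0.1, the smallest possible here).

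Snord53 varied widely within WT, at 1.08, 3.01 and 9.71 FPKM against 7.01, 8.82 and 19.1 FPKM in Hemgn-/- libraries. WT replicate 3 lay above 2 of the Hemgn-/- libraries. Snord53 had a log2 fold change of 1.38 (SE 0.55, adjusted p = 0.194, limma with Benjamini-Hochberg adjustment), and leaving out 1 library gave 0.83 (without WT replicate 1, adjusted p = 0.398) to 2.01 (without WT replicate 3, adjusted p = 0.0465). Over all alternatives its adjusted p ran from 0.0138 to 0.437. Snord92, in another intron of Wdr43, had a log2 fold change of 0.55 (adjusted p = 0.425, limma) on a mean of 6 fragments. Wdr43 itself was at 25.1, 25.4 and 27.8 FPKM in WT and 37.2, 30.1 and 36.7 FPKM in Hemgn-/- replicates, with a log2 fold change of 0.39 and a limma adjusted p of 0.0604, which ran from 0.0299 to 0.202 over the alternatives.

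The remaining well-covered box C/D genes overlapped between genotypes. Snord72 (ENSMUSG00000077737, chr15:5118404-5118484, plus strand, in an intron of the ribosomal protein gene Rpl37) and Snord7 (ENSMUSG00000065715, chr11:83294304-83294400, plus strand, in an intron of the noncoding AA465934) came next in level, and are shown for comparison with Snord73a.
Snord72: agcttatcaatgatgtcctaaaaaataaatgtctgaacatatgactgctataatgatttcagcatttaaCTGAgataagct
Snord7: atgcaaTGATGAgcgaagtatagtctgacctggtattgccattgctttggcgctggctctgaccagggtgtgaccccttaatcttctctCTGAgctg

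Snord72 lay at 18.8, 22.2 and 24.1 FPKM in WT and 8.10, 24.5 and 16.2 FPKM in Hemgn-/- replicates. The difference was -0.51 on the log2 scale (SE 0.31, adjusted p = 0.404, limma with Benjamini-Hochberg adjustment). Hemgn-/- replicate 1 was the lowest of all and replicate 2 the highest, and the difference ran from -0.11 without the first to -0.85 without the second. Its host Rpl37, at 7.19 FPKM on average, was lower than the snoRNA gene per length and had a log2 fold change of 0.09. Snord7 lay at 21.3, 14.9 and 16.4 FPKM in WT and 18.8, 11.8 and 19.3 FPKM in Hemgn-/- replicates, a log2 fold change of -0.09 (adjusted p = 0.831, limma). Its annotated host was nearly absent, at 0.0674 FPKM on average. Snord7 was above its host in fragments too, with a mean of 44 per library against 1.33.

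Snord69, which overlaps an annotated exon of Gnl3 (nucleostemin, a nucleolar GTP-binding protein), shares its letters with a host transcript. Its level was 14.8, 5.86 and 11.7 FPKM in WT and 11.4, 12.9 and 12.5 FPKM in Hemgn-/- replicates, with WT replicate 2 the lowest. Its log2 fold change was 0.25 (adjusted p = 0.619, limma). Gnl3 was also lowest in WT replicate 2, at 31.5, 20.8 and 31.2 FPKM in WT and 36.7, 37.3 and 37.5 FPKM in Hemgn-/- libraries, and its log2 fold change was 0.43 (adjusted p = 0.139, limma). Snord98 in Ccar1 and Snord8 in Chd8 had log2 fold changes of -0.08 (adjusted p = 0.904) and 0.10 (adjusted p = 0.882) in limma, with overlapping groups.

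**Figure D3:**
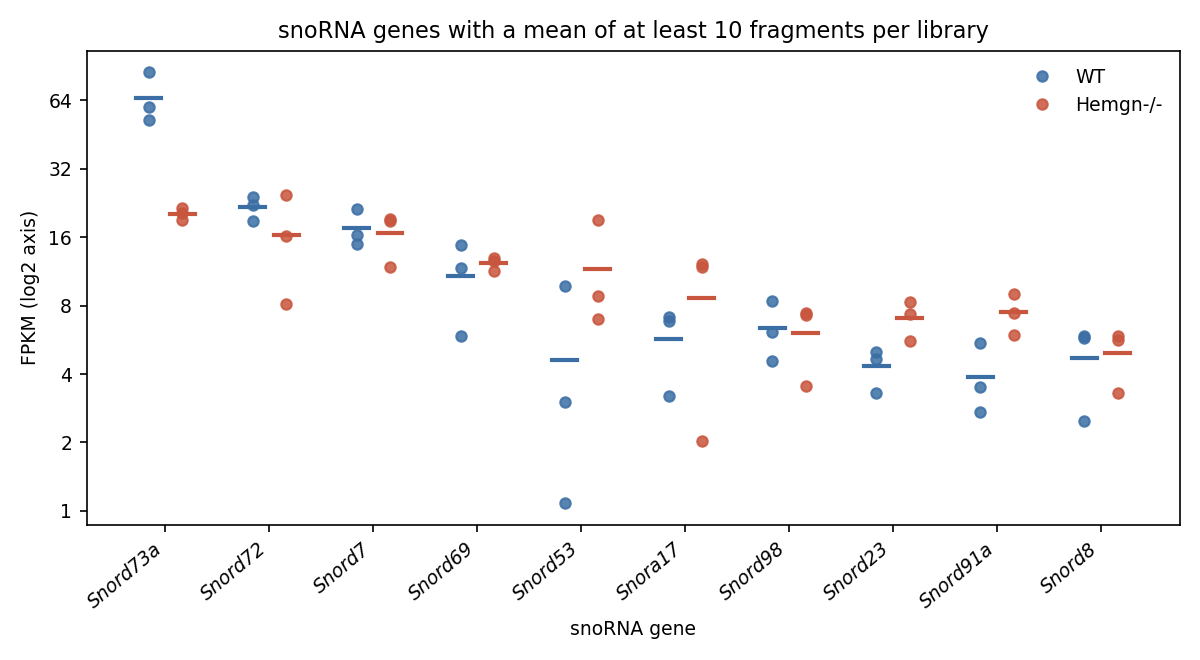
FPKM on a log2 axis of the 10 snoRNA genes with a mean of at least 10 fragments per library, where each point is a library and each line the mean of 3 libraries. The genotypes do not overlap for Snord73a (WT higher) or for Snord23 and Snord91a (Hemgn-/- higher), and they overlap for the other genes.

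Of the snoRNA genes put on the list for precursor cleavage, Snord118 (U8), needed for large-subunit RNA, and Snord13 (U13) were in the table. Whether Snord13 has that role was not examined. Snord118 gave 3, 0 and 4 fragments in WT against 5, 9 and 8 in Hemgn-/- replicates, at 0.939, 0 and 1.07 and at 1.35, 2.55 and 2.05 FPKM. The groups did not overlap, on at most 9 fragments in any library. It had a log2 fold change of 0.89 (SE 0.31, adjusted p = 0.140, limma with Benjamini-Hochberg adjustment), and its value is uncertain because Gm24208 matches it at 96.2% identity over 133 bases. Snord13 had 1 fragment in all, in Hemgn-/- replicate 3, and was not tested.

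Box H/ACA genes were low, and their copies made several uncertain. Snora17 (ENSMUSG00000077192, chr2:26639190-26639321, minus strand) was the only one with a mean above 10 fragments. It is shown with the ACA near its end in capitals, letters that lie within the last 25 bases of 95.2% of annotated box H/ACA genes and 28.6% of box C/D genes.
Snora17: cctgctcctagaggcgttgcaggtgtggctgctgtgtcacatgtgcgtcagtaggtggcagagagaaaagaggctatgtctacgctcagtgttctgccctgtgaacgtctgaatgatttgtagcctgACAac

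Snora17 gave 10, 24 and 25 fragments in WT against 44, 7 and 45 in Hemgn-/- replicates. Hemgn-/- replicate 2 was the lowest of all 6 libraries and the other Hemgn-/- libraries the highest. Its log2 fold change was 0.31 (SE 0.53, adjusted p = 0.778, limma with Benjamini-Hochberg adjustment), and it ran from -0.05 without Hemgn-/- replicate 1 to 1.01 without Hemgn-/- replicate 2. Gm25617 and Gm25053 match Snora17 at 94.4% and 93.0% identity, so fragments may be shared among them. Snora19 and Snora41 had log2 fold changes of 0.05 and 0.11 on means of 8 and 7 fragments, and Gm23658 is identical to Snora19 over all 132 bases.

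Many genes were seen in few libraries. In all WT libraries 9 genes were at 0, and they gave 1 to 6 fragments in Hemgn-/- libraries, while 0 genes were at 0 in all Hemgn-/- libraries. Over the whole table, 19304 to 19691 genes were above 0 in WT libraries and 19719 to 20039 in Hemgn-/- libraries. The share of all genes at 0 throughout a group was not counted, so this split is not read as particular to snoRNA genes. Of the 9, Snord11 alone exceeded 1 FPKM and was tested (adjusted p = 0.522 in limma), and 5 were seen only in Hemgn-/- replicate 3, the deepest library. A count of 0 allows up to 3 fragments, which is 0.726 to 1.76 FPKM per WT library for these genes, so a level under this could not be told from 0 at this depth. Without Hemgn-/- replicate 3, 33 of the 38 genes were above 0 in at least 1 of the other 5 libraries.

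The total on the 38 genes overlapped between genotypes. They took 13.0, 13.6 and 15.7 FPM in WT replicates 1, 2 and 3 and 11.9, 11.5 and 14.9 in Hemgn-/- replicates. The 95% exact binomial intervals were 11.6 to 14.6 for WT replicate 1, 12.2 to 15.1 for replicate 2 and 14.3 to 17.3 for replicate 3, and 10.6 to 13.2, 10.3 to 12.9 and 13.6 to 16.4 for the Hemgn-/- replicates in the same order. Without Snord73a the totals were 9.46, 9.53 and 9.96 FPM in WT and 10.5, 10.2 and 13.5 in Hemgn-/- libraries, with each Hemgn-/- total above each WT total. The 95% exact binomial intervals still overlapped for WT replicate 3 (8.82 to 11.2) and Hemgn-/- replicates 1 (9.32 to 11.8) and 2 (9.05 to 11.5). Only Hemgn-/- replicate 3 lay apart (12.2 to 14.9). The 221 other genes typed as snoRNA, which lack a Snord or Snora symbol, took 43.4, 48.0 and 43.7 FPM in WT and 54.3, 52.0 and 50.4 in Hemgn-/- libraries. The median log2 fold change over their 153 tested genes was 0.21, and these included 3 higher (1.96%) and 0 lower at an adjusted p under 0.05, while other genes under 300 bases had a median of 0.15 (532 tested, 26 higher, 4.89%, and 5 lower, 0.94%).

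The hosts had a median near that of all genes, though more of those tested were higher (78.6%, against 63.0% of all genes). At an unadjusted p under 0.05 in limma, 21.4% were higher and 7.14% lower, against 15% and 6.46% of all genes. Of the 29 hosts, 28 were tested, with a median log2 fold change of 0.12, 2 higher (Tsr1 and 2410002F23Rik, 7.14%) and 1 lower (Rps3a1, 3.57%) at a limma adjusted p under 0.05, against 4.37% and 2.09% of all genes tested. The gene 2410002F23Rik, host of Snord88c, was singled out after its values were seen, and went from 6.72 ± 0.89 to 11.2 ± 1.38 FPKM (SD, n = 3 libraries per group), or by 0.66 on the log2 scale. Snord88c itself gave 6 fragments in WT and 5 in Hemgn-/- libraries in all. For 24 snoRNA genes both the gene and its host were tested, and the signs of their log2 fold changes matched in 15 of them.

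**Figure D4:**
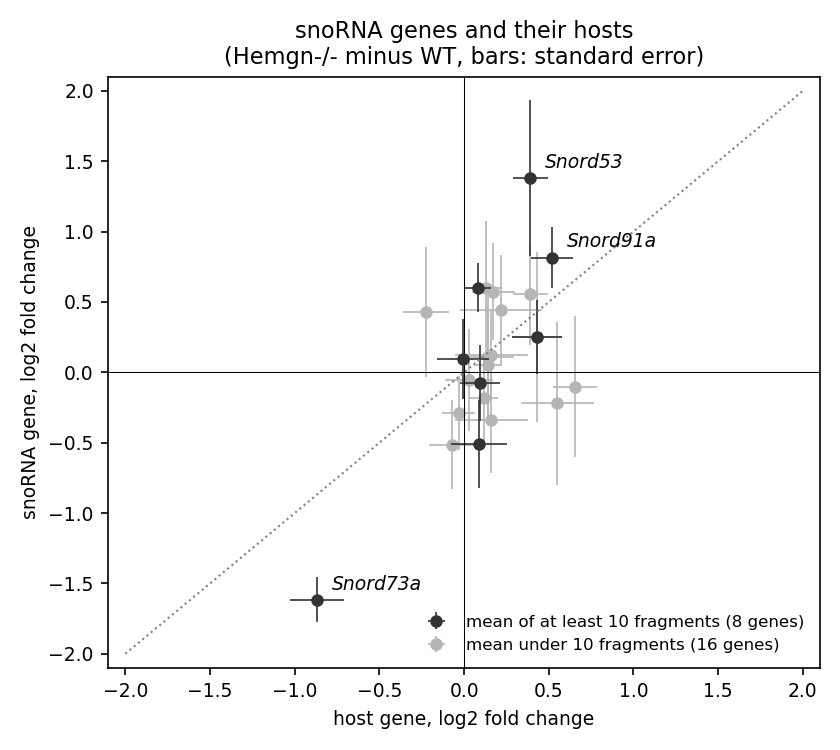
Log2 fold change of 24 snoRNA genes against that of their hosts (Hemgn-/- minus WT, bars are standard errors, dotted line marks equal values), in black for the 8 with a mean of at least 10 fragments and grey for 16 with fewer. Snord73a and Rps3a1 lie alone at the lower left, and Snord91a and Snord53 lie above the line.

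No host gene named for carrying snoRNAs passed the adjusted test. Among the 14 Snhg, Gas5 and Zfas1 genes, 7 were tested, and 0 were called in limma with adjustment, 1 higher (14.3%, against 15% of all genes) and 0 lower at an unadjusted p under 0.05, with a median log2 fold change of 0.088. That 1 gene was Gas5, a noncoding host of box C/D snoRNAs, at 6.71, 7.23 and 6.19 FPKM in WT and 8.46, 9.15 and 8.09 FPKM in Hemgn-/- replicates. Its groups did not overlap, and its log2 fold change was 0.31 (SE 0.11, adjusted p = 0.137, limma with Benjamini-Hochberg adjustment). Snhg20 had a log2 fold change of 0.37 (adjusted p = 0.306), and Snhg5, Snhg6, Snhg15, Snhg17 and Zfas1 lay between -0.09 and 0.11. Snhg1, Snhg8, Snhg10, Snhg11, Snhg12, Snhg14 and Snhg18 did not exceed 1 FPKM and were not tested.

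Genes for snoRNA particles, their assembly and maturation, and the nucleolus showed single changes. Of 35 listed genes with a value, 34 were tested, with a median log2 fold change of 0.14 (25 higher, 9 lower), and 3 rose and 0 fell at an adjusted p under 0.05. That is 8.82% higher at that threshold against 4.37% of all genes tested (2.09% lower), and 73.5% above 0 against 63.0%. The share above 0 was 100% for the 8 genes of the nucleolus and rRNA synthesis, which include Myc. It was 75% for each core set, 66.7% for assembly genes and 55.6% for maturation genes. Dkc1, the pseudouridine synthase of box H/ACA particles, rose from 15.4, 14.1 and 17.1 FPKM to 20.97, 20.4 and 20.2 FPKM, by 0.38 on the log2 scale (SE 0.09, adjusted p = 0.0491, limma with Benjamini-Hochberg adjustment). Gar1, another core protein of the same particles, lay at 1.38, 3.60 and 3.03 FPKM in WT and 1.02, 0.914 and 0.626 FPKM in Hemgn-/- replicates, a log2 difference of -0.94 (SE 0.26, adjusted p = 0.0721). Leaving out 1 library gave -1.22 (without WT replicate 1, adjusted p = 0.0241) to -0.75 (without WT replicate 2, adjusted p = 0.185), and the adjusted p of Gar1 ran up to 0.202. The RNAs for these 2 proteins of 1 particle had log2 fold changes of opposite sign, each without overlap between genotypes, though Gar1 was not called. Protein was not measured here. Nop10 and Nhp2, which encode the other core proteins, had log2 fold changes of 0.14 (adjusted p = 0.573) and 0.16 (adjusted p = 0.473) in limma.

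In the box C/D particle, Fbl, the 2'-O-methyltransferase, lay at 4.26, 7.14 and 5.32 FPKM in WT and 3.92, 4.32 and 3.33 FPKM in Hemgn-/- replicates. WT replicate 1 lay within the range of the Hemgn-/- libraries. Its log2 fold change was -0.42 (SE 0.17, adjusted p = 0.211, limma with Benjamini-Hochberg adjustment). Nop56, Nop58 and Snu13, which encode the scaffold and kink-turn proteins, had log2 fold changes of 0.14 (adjusted p = 0.569), 0.13 (adjusted p = 0.452) and 0.10 (adjusted p = 0.576).

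Outside the core, 1 trimming gene and 1 regulator rose. Xrn2, a 5'-to-3' exonuclease that trims snoRNA precursors, lay at 36.0, 37.7 and 36.2 FPKM in WT and 53.7, 45.6 and 46.7 FPKM in Hemgn-/- replicates, a log2 difference of 0.40 (SE 0.08, adjusted p = 0.0300, limma with Benjamini-Hochberg adjustment). Myc, a transcription factor that drives ribosome synthesis, lay at 49.6, 47.6 and 53.6 FPKM in WT and 72.2, 68.8 and 69.6 FPKM in Hemgn-/- replicates, a log2 difference of 0.48 (SE 0.07, adjusted p = 0.0077). All Hemgn-/- libraries were above all WT libraries for both genes. The calls on Dkc1 and Xrn2 did not hold under quantile normalization (0.130 and 0.0905) or without WT replicate 1 (0.123 and 0.0947), and on leaving out 1 library in turn only Xrn2 kept its call, and only without Hemgn-/- replicate 2. Over the alternatives the adjusted p ran from 0.0201 to 0.143 for Dkc1 and from 0.0142 to 0.11 for Xrn2. Among the 9 assembly genes tested 0 were called, and 2 were higher (22.2%) and 0 lower at an unadjusted p under 0.05, against 15% and 6.46% of all genes.

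**Figure D5:**
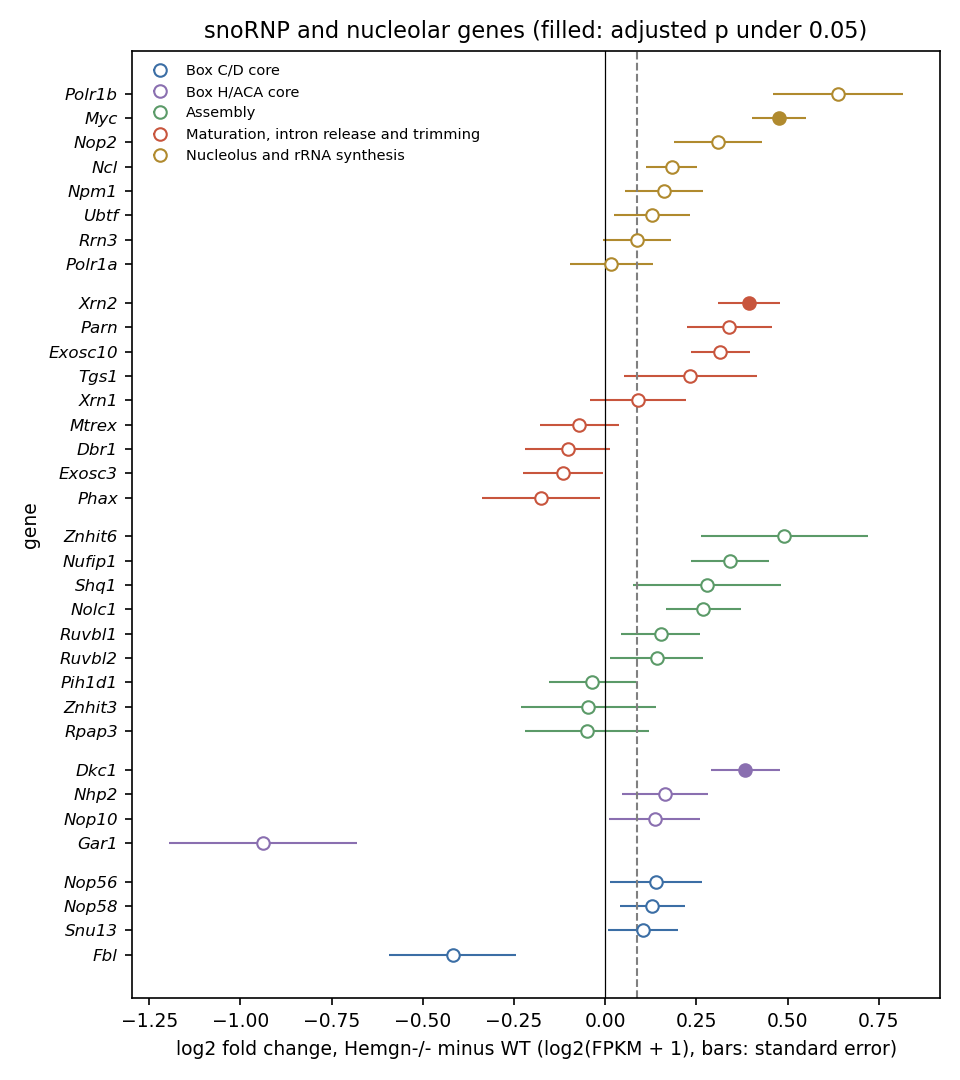
Log2 fold change (Hemgn-/- minus WT, on log2(FPKM + 1), bars are standard errors) of 34 genes of snoRNA-protein particles, their assembly, maturation and the nucleolus, coloured by role, with the median of all genes dashed. Filled points mark the 3 genes with an adjusted p under 0.05 (Dkc1, Xrn2 and Myc), and Gar1 and Fbl lie lowest.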

How the data were processed

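RNA of sorted donor cells was sequenced in 3 WT and 3 Hemgn-/- libraries, grouped by the genotype in the labels. FPKM values, per gene and library, are what the authors deposited, and the submitters' notes name GRCm38, Bowtie2 2.2.3, HISAT2 2.1.0, TopHat2 and HTSeq 0.6.0 with no role or order. Whether counting used strand is not given in the sources used here, so reads of the 2 strands may be mixed. No column was left unmapped (0). FPKM steps, with GENCODE M21 exon lengths, gave depth and fragments. Of 13472 genes with at most 100 fragments, 95.2% were whole in all 6 libraries (tolerance 0.01), as were all 38 snoRNA genes. Recovered fragments sum to 106% to 107% of the depth. Identifiers matched for 24921 of 24965 genes.

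The 13739 genes above 1 FPKM in any library were taken as log2(FPKM + 1) and tested with limma 3.58.1 in R 4.3.3 (lmFit, eBayes with a trend, no covariate, two-sided), with Benjamini-Hochberg adjustment over all of them. Fold changes on this scale understate those of low genes. Values adjusted under 0.05 were called. The test was tried on simulated data first. Host genes hold the whole snoRNA gene on their own strand, and ratios to hosts were compared by an exact permutation test. Replicates differed by far more than sampling noise (chi-square per gene 17.5 to 35.2), so none was counted as a copy of another. Python 3.11.15, numpy 2.4.6, pandas 2.3.3 and scipy 1.17.1 were used for the rest.

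Named are Hemgn, snoRNA genes called, the 10 of highest mean FPKM, up to 5 highest and 5 lowest fold changes among those with a mean of at least 20 fragments, listed precursor-cleavage and Rpl13a-intron snoRNAs, their hosts, core and called particle genes, and Snhg genes, Gas5 and Zfas1. Other genes named were chosen after their values were seen. Members and lists were chosen with earlier results of these data known. Alternatives were another pseudocount (0.1), 3 filters, 3 scalings, no trend, voom on fragments, a replicate block and leaving out each library, with the FPKM filter applied to the libraries kept.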

Additional observations from a re-analysis of the deposited data

How the results depend on the processing

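Snord73a was lower and called under all 16 alternatives (log2 fold change -1.76 to -1.42, limma adjusted p 0.00078 to 0.0202), and it was the only snoRNA gene lower at an adjusted p under 0.05 in each. The number of snoRNA genes higher at that threshold, 0 as reported, was 1 after rescaling to the same FPKM total (Snord91a), 2 with the replicate block (Snord91a and Snord53), and 0 to 1 on leaving out 1 library (Snord91a without WT replicate 2, Snord53 without WT replicate 3). The number at an unadjusted p under 0.05 and 1.5-fold, 5 as reported, was 1 with voom and 3 to 6 on leaving out 1 library. Of all genes, 887 were called, 466 without a filter, 390 without a trend and 373 to 688 on leaving out 1 library. The median log2 fold change of the particle and nucleolar genes was 0.14 as reported. It was 0.045 after median-ratio scaling, 0.062 after quantile normalization, 0.23 at the same FPKM total and 0.11 to 0.18 on leaving out 1 library. The snoRNA median ran from -0.015 to 0.21 on leaving out 1 library, with a change of sign. Same-numbered libraries did not deviate together over the genes tested (r = -0.043, -0.0094 and 0.011). Whether they were paired by litter or day is not given in the sources used here, and these values cannot settle it.

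Depth limits the rest. Of the 38 genes 28 have a mean under 10 fragments, and 3 libraries per group cannot give an exact permutation p below 0.1. Counted over each named gene under each alternative, a call was lost 38 times and gained 9 times, and a called direction turned 0 times. Values that were not called took the opposite sign 23 times (5 times by more than 1 standard error), over 10 of 37 genes, including Snord7, Snord8, Snord69, Snord98 and Snora17. Lost calls include Rps3a1 without a filter (adjusted p = 0.0802) and without a trend (0.0722), and Myc without a trend (0.0609). Hemgn lost its call without a filter (0.0613) and without WT replicate 3 (0.0503).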

Other observations

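Of the snoRNA genes above 0 in all 6 libraries, 3 had even recovered fragment numbers throughout. These were Snord73a, with 84, 104 and 160 fragments in WT and 38, 34 and 42 in Hemgn-/- libraries, Snord72, with 36, 46 and 54 and with 18, 52 and 38, and Snord23, with 12, 14 and 10 and with 22, 16 and 26. They are 3 of the 10 snoRNA genes with a mean of at least 10 fragments, where 298 of 15832 genes of that depth (1.88%) and 1 of 195 other genes under 300 bases (0.513%) were even throughout. How these reads were counted was not tested.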
